A study of Mus musculus with 89 samples.

Results

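Serum amyloid A (SAA) is a small apolipoprotein family encoded in the mouse by Saa1, Saa2, Saa3 and Saa4, which lie next to each other on chromosome 7. The 4 genes were taken from the lung arrays as the non-control probes whose RefSeq accession maps to one of these symbols, giving 4 of the 22911 genes measured. Each gene had 1 probe in 1 spot: NM_009117 for Saa1 (gene ID 20208), NM_011314 for Saa2 (20209), NM_011315 for Saa3 (20210) and NM_011316 for Saa4 (20211). The family was selected on measured values, its rise in exposed against control lungs of these same samples, so differences of exposed groups from controls, differences between such differences, and the step from PBS to OVA controls, which shares the PBS controls, are given below as descriptions. For these, fitted values, intervals and counts of genes past the call rule are printed without p-values, and nothing is read from the counts. Comparisons between materials and between doses use no control values as their baseline and carry p-values. They share the exposed samples whose rise chose the genes, and these p-values make no allowance for that choice. Control samples also enter the fits that link materials on different slides. The choice used no threshold.

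SAA1 and SAA2 are the classical acute-phase isoforms, released by the liver and carried on high-density lipoprotein. SAA3 is in the mouse the main form made outside the liver, by epithelium and macrophages among others, and SAA4 is regarded as the constitutive form. Transcription of the acute-phase members is switched on by interleukin-6, interleukin-1 and tumour necrosis factor through STAT3, C/EBP and NF-kB factors, and the proteins act on receptors such as FPR2 and TLR2 that attract and activate neutrophils. In the lung, SAA is known as a marker of the pulmonary acute-phase response to inhaled particles.

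RNA came from the lavaged lungs of female BALB/c mice aged 6 to 8 weeks at the start, 8 mice per group, taken 24 h after the last of 4 daily exposures by oropharyngeal aspiration. All mice, controls included, had been sensitized with 50 µg ovalbumin (OVA) in 2 mg alum on days 1 and 10 and had rested for 10 days, so no group was unsensitized. In the airway challenge they then received phosphate-buffered saline (PBS) or OVA, alone or with copper oxide nanoparticles: core CuO, carboxylated CuO COOH, methylaminated CuO NH3 or PEGylated CuO PEG, each at 2.5, 10 or 40 µg per mouse. The 26 groups comprised 89 samples, each an independent pool of 2 RNA samples selected for RNA quality: 7 PBS controls, 8 OVA controls, 4 each of CuO NH3 10 and CuO PEG 10 after PBS, and 3 in every other group. Pooled samples average animals, so the p-values measure the spread between pools. Doses were matched in µg of material as labelled, and the copper content of the materials was not analysed here.

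Each sample filled 1 dye channel of a 2-colour array, and its values are log2 median spot intensities after quantile normalization between channels, without background subtraction. The 46 arrays lay on 6 slides. Slides 1 to 3 carried the core and carboxylated particles and slides 4 to 6 the methylaminated and PEGylated ones, with controls on both sets. The number of samples limits the precision: median raw intensity ran from 55 to 180 per sample, and 46.69% to 68.81% of spots were well above background. Spots for Saa1 and Saa3 were well above background in 89 of 89 samples, for Saa2 in 87 and for Saa4 in 51. No SAA spot was saturated. Raw intensities spanned 92 to 42093 for Saa1, 46 to 2004 for Saa2, 454.5 to 169852 for Saa3 and 24.5 to 186 for Saa4, and levels of different probes are not compared. Markers of lung epithelium were well above background in most samples for 12 of 12 genes. Of 10 hepatocyte genes 6 were, and the hepatocyte list averaged 7.39 to 7.68 on the log2 scale in PBS controls and 7.39 to 7.50 in mice given CuO 40. In bulk lung, a change in the number of cells of a type and a change of RNA per cell cannot be told apart.

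The promoters are shown so that the likeness of Saa1 and Saa2 and the distance of Saa3 and Saa4 from them can be seen beside their values. They run from 250 bases before to 50 bases after the RefSeq start, 5′ to 3′ on the gene's own strand, in build GRCm38.p6: Saa1 at chr7:46742931-46743230 (minus strand), Saa2 at chr7:46751583-46751882 (plus), Saa3 at chr7:46715627-46715926 (minus) and Saa4 at chr7:46732554-46732853 (minus). Capitals mark matches to the C/EBP-like motif TTNNGCAA on either strand.
Saa1: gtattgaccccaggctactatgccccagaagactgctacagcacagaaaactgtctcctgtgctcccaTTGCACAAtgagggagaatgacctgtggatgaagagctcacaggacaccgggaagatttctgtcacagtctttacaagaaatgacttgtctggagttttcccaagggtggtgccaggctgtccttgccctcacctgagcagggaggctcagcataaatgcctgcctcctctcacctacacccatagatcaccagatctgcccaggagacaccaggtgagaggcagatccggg
Saa2: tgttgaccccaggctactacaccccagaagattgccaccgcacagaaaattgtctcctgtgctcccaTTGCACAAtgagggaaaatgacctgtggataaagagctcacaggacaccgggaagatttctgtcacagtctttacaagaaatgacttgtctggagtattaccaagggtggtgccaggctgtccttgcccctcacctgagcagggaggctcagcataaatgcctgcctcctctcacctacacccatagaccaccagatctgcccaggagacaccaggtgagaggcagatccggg
Saa3: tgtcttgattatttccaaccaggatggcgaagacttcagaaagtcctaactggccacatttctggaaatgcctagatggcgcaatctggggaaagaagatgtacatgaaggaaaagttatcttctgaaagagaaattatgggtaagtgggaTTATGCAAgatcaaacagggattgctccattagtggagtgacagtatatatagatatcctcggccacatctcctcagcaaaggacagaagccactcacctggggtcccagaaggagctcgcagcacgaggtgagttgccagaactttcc
Saa4: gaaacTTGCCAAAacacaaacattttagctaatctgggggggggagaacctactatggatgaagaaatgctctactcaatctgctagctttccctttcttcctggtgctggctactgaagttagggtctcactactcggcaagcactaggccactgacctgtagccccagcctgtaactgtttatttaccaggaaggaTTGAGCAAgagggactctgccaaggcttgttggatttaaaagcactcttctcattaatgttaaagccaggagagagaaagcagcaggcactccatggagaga

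The promoters of Saa1 and Saa2, which face away from each other, were 95.3% identical over the aligned window. Saa3 shared 50.9% with Saa1 and 50.2% with Saa2, and Saa4 shared 46.8%, 43.9% and 43.3% with Saa1, Saa2 and Saa3. The C/EBP-like letters lay at position -182 in Saa1 and -183 in Saa2, in both as TTGCACAA on the opposite strand, at -99 in Saa3 as TTATGCAA, and at -245 (TTGCCAAA, opposite strand) and -52 (TTGAGCAA) in Saa4. Of 32851 mouse promoters of this length, 10.8% held that motif. The NF-kB-like GGGNNTTNC (15.2% of promoters), the STAT-like TTCNNNGAA (8.3%) and the TATAAA box (13.6%) were searched on both strands too, and these letters were in none of the 4 windows. A match is a description of sequence and not a binding site. Because Saa1 and Saa2 are near-identical genes, cross-hybridisation between their probes was not tested, and their values are uncertain to that extent.

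The first comparison asked how SAA levels in PBS-challenged lungs moved with material and dose. Saa3, the extrahepatic form, stood at 9.62, 11.32 and 12.61 (lowest, median and highest log2 intensity) in the 7 PBS controls. With core CuO it read 15.20, 15.70 and 15.52 at 2.5 µg, 15.31, 15.13 and 16.00 at 10 µg, and 15.39, 15.92 and 15.67 at 40 µg. All 9 CuO samples lay above all 7 controls, and the lowest dose already overlapped the highest.

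With CuO COOH, Saa3 read 14.55, 11.22 and 14.24 at 2.5 µg, 14.85, 15.25 and 15.54 at 10 µg, and 15.18, 14.51 and 15.94 at 40 µg. Replicate 2 of the 2.5 µg group stayed within the control range, apart from its group. With CuO NH3, Saa3 read 15.74, 14.55 and 15.43 at 2.5 µg, 15.51, 15.43, 15.37 and 15.29 at 10 µg, and 15.07, 15.11 and 16.01 at 40 µg, all above the controls. PEGylated particles gave another pattern: 11.10, 10.70 and 10.49 at 2.5 µg, 14.38, 13.64, 13.44 and 12.57 at 10 µg, and 15.43, 13.92 and 15.80 at 40 µg. The lowest PEG dose lay within the control range, the middle dose overlapped the top of it, and the highest dose reached the levels of the other materials.

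Saa1, the liver-type acute-phase form, ran between 7.05 and 9.39 (median 8.69) in PBS controls. It read 12.77, 14.02 and 13.13 with CuO at 2.5 µg, 13.15, 13.16 and 13.59 at 10 µg, and 13.10, 13.88 and 13.43 at 40 µg. With CuO COOH the values were 12.23, 9.42 and 11.93, then 12.60, 13.33 and 13.05, then 13.12, 12.44 and 13.60 at the 3 rising doses. The same COOH 2.5 µg sample, replicate 2, was again close to the controls.

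For CuO NH3, Saa1 was 12.24, 11.15 and 11.51 at 2.5 µg, 12.16, 11.95, 11.73 and 11.18 at 10 µg, and 11.75, 11.81 and 12.37 at 40 µg. For CuO PEG it was 8.10, 7.60 and 7.46 at 2.5 µg, 10.82, 9.96, 9.51 and 9.08 at 10 µg, and 11.97, 10.44 and 12.42 at 40 µg. These 2 materials were hybridised on slides 4 to 6, where the PBS controls for Saa1 averaged 7.95 ± 0.93 (SD, n = 4) against 9.10 ± 0.37 (SD, n = 3) on slides 1 to 3. The offset between slide sets is seen in the plot of sample values, where each panel carries the controls of its own slides.

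**Figure D1:**
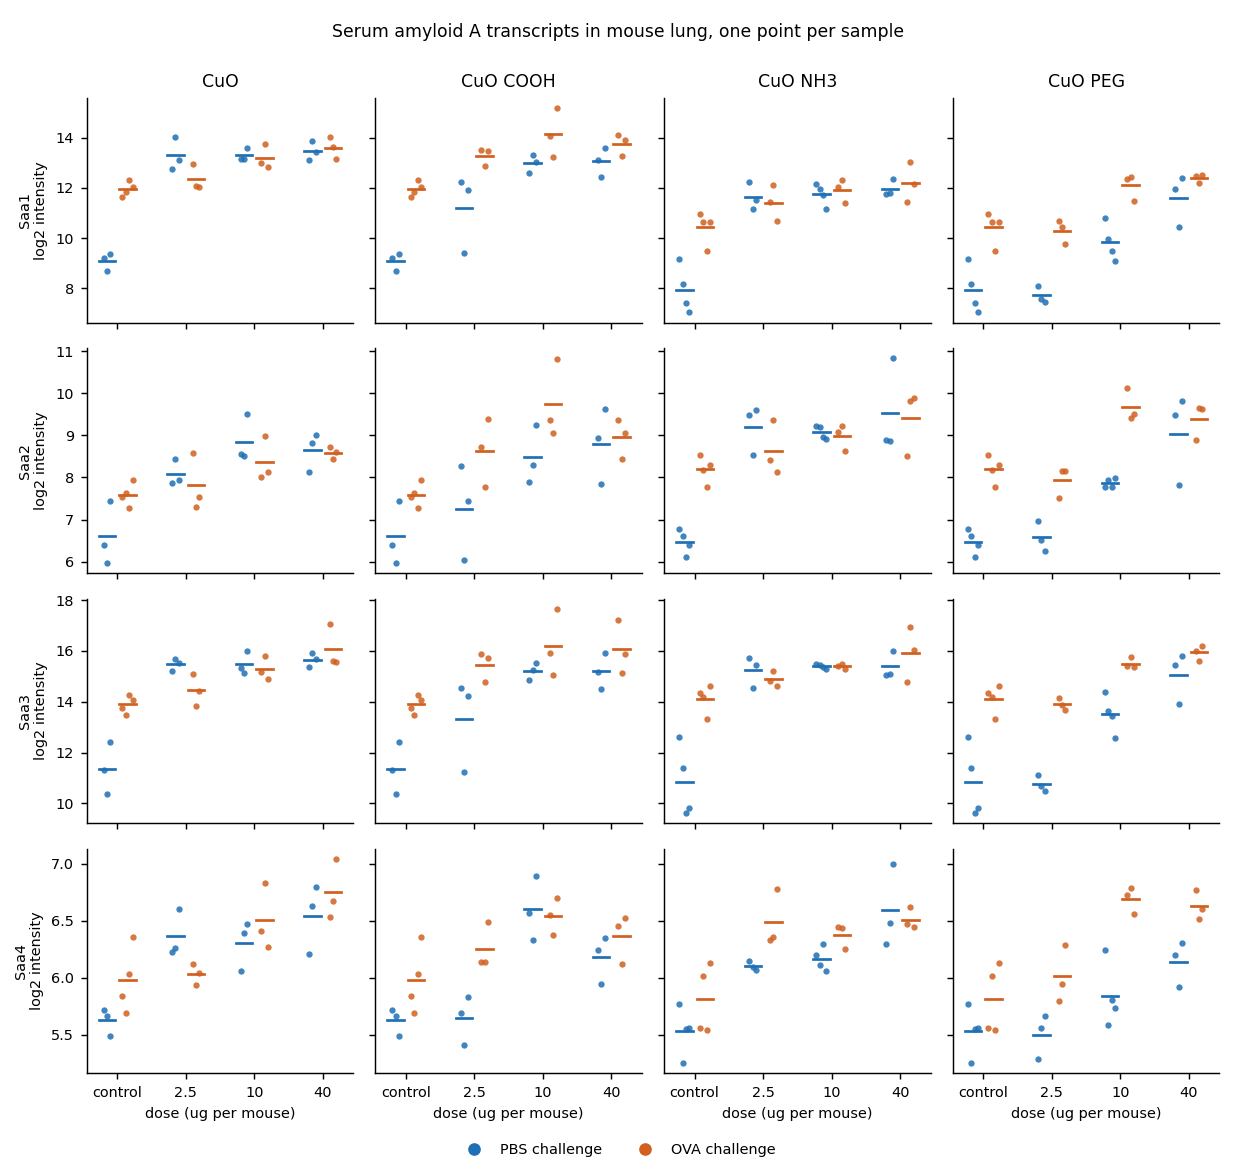
Log2 intensity of the SAA probes in every sample, by material and dose after PBS or OVA challenge, with the control samples of the same slides in each panel. Saa1 and Saa3 sit near 13 and 15 at every CuO dose after PBS, whereas the CuO PEG samples climb from the control range at 2.5 µg (Saa3 10.49 to 11.10) to 13.92 to 15.80 at 40 µg.

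Saa2 moved less. PBS controls ran from 5.98 to 7.45 (median 6.40), CuO 40 samples read 8.13, 8.83 and 9.01, and CuO NH3 40 samples 8.90, 8.86 and 10.83. CuO PEG samples read 6.97, 6.51 and 6.26 at 2.5 µg, 7.77, 7.94, 7.76 and 7.98 at 10 µg, and 9.48, 7.82 and 9.82 at 40 µg. Saa4 hardly left the background: 0 of 7 PBS controls, at 5.25 to 5.77, were well above it, and the CuO 40 samples read 6.21, 6.63 and 6.80. Saa2 had the same order of PEG doses as Saa1 and Saa3, and Saa4 spanned under 2 log2 units over all samples.

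Differences from PBS controls, fitted with terms for dye and array and with the spread shared over all 26 groups, put Saa3 at 6.16 ± 0.85 (SE) on the log2 scale with CuO 40, a 71.4-fold difference. Saa1 differed by 5.77 ± 0.65 (54.5-fold) and Saa2 by 2.49 ± 0.62 (5.63-fold). For Saa4, whose controls were not well above background, the difference was at least 1.62-fold, with measured means of 6.54 and 5.57. Saa3 was higher by 5.49 ± 0.76 already at CuO 2.5 and by 6.16 ± 0.89 at CuO 10. Among all 22911 genes ranked by their rise in each of the 12 exposed PBS groups, Saa3 was first in 7 and within the first 3 in 10, and Saa1 was within the first 3 in 9.

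The coated materials gave Saa3 differences of 4.31 ± 0.91, 5.82 ± 0.91 and 5.53 ± 0.82 for CuO COOH at 2.5, 10 and 40 µg, and of 4.88 ± 0.70, 4.56 ± 0.61 and 4.53 ± 0.60 for CuO NH3. For CuO PEG the corresponding values were -0.60 ± 0.81, 2.78 ± 0.42 and 4.93 ± 0.71. Saa1 ran in parallel, with 3.90 ± 0.70, 5.07 ± 0.69 and 5.05 ± 0.63 for CuO COOH, 4.67 ± 0.54, 4.11 ± 0.46 and 4.44 ± 0.46 for CuO NH3, and -0.17 ± 0.62, 2.08 ± 0.32 and 4.66 ± 0.54 for CuO PEG. With CuO PEG at 2.5 µg the estimate was below 0 for each of the 4 genes. The CuO COOH 2.5 values rest on replicates 1 and 3. Replicate 2, in or near the control range, was alone on its array, so array terms leave it no weight. With dye, slide and position terms, which use all its samples, CuO COOH 2.5 differed by 1.92 for Saa3 and 1.79 for Saa1. Neither of these passed the call rule.

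A gene was called when its Benjamini-Hochberg adjusted p from limma was under 0.05 and its log2 difference over 0.58. After PBS, 37 of 48 gene and group combinations were called higher: 11 of 12 groups for Saa1, 9 for Saa2, 11 for Saa3 and 6 for Saa4. The Saa4 calls include CuO NH3 10 and CuO PEG 40, where 0 of 4 and 1 of 3 exposed samples were well above background. The Saa4 counts here therefore include readings near background. The share of all genes called higher was 0.825%, 2.57% and 7.96% for CuO at 2.5, 10 and 40 µg, 0.349%, 2.53% and 6.05% for CuO COOH, 0.86%, 2.62% and 7.27% for CuO NH3, and 0%, 0.406% and 1.75% for CuO PEG. All samples of a group lay above all PBS controls in 10 of 12 groups for Saa1, 10 for Saa2, 9 for Saa3 and 9 for Saa4, beside 6.66% of all genes pooled over the 12 groups. Nothing is read from these counts, since the contrast chose the genes. Against controls of the same slides alone, 31 of 48 were called.

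**Figure D2:**
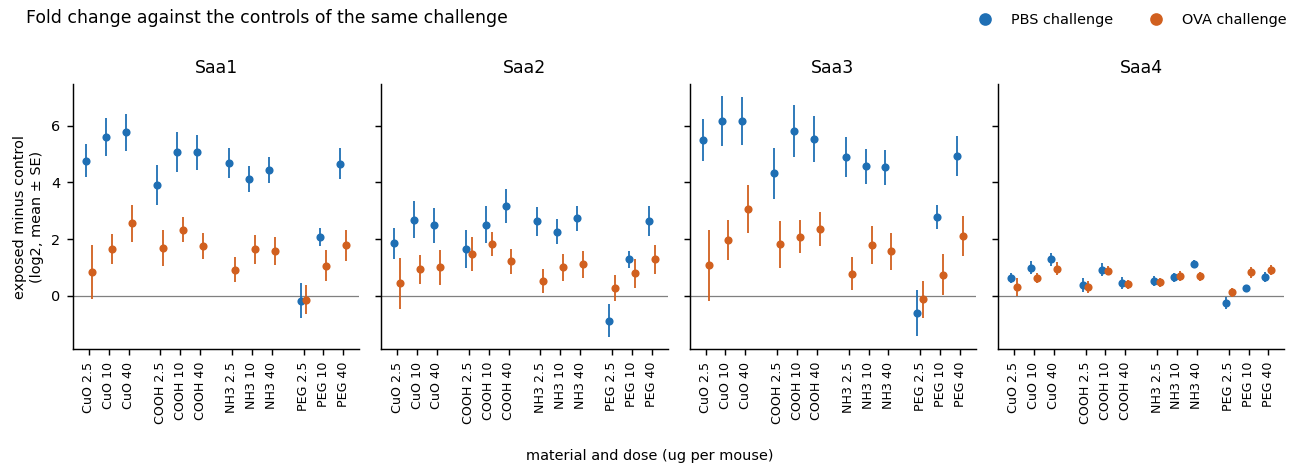
Log2 difference from the control of the same challenge for each SAA gene, by material and dose, with bars of ± SE from the limma fit. After PBS the Saa1 and Saa3 points lie between 3.90 and 6.16 for CuO, CuO COOH and CuO NH3 at every dose and start near 0 for CuO PEG; after OVA the Saa3 points lie between -0.12 and 3.07.

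The second comparison asked what the OVA challenge alone did, in unexposed mice. Saa3 ran from 13.33 to 14.64 (median 14.12) in the 8 OVA controls, with no overlap with the 7 PBS controls, and was 3.38 ± 0.51 (SE) higher on the log2 scale (10.4-fold, 95% interval 2.32 to 4.44). Saa1 ran from 9.51 to 12.32 (median 11.30), again without overlap, and was 3.15 ± 0.39 higher (8.86-fold, 2.34 to 3.95). Saa2 ran from 7.28 to 8.53 (median 7.86), overlapped the highest PBS control at 7.45, and was 1.24 ± 0.37 higher (2.37-fold, 0.48 to 2.01). Saa4 ran from 5.54 to 6.36 (median 5.93), overlapped, and differed by 0.23 ± 0.13 (-0.04 to 0.50), with measured means of 5.90 and 5.57. It was well above background in 2 of 8 OVA controls and 0 of 7 PBS controls, so no bound is given. The call rule was passed by 3 of the 4 genes, beside 3.72% of all genes called higher, and 2 of the 4 had no overlap, beside 4.31%. Since the PBS controls also entered the choice of the genes, nothing is read from these counts. Saa2 did not pass with background-corrected intensities (1.08), without PBS control replicate 2 or 3 (1.34 and 1.03) or without OVA control replicate 2, 3 or 5 (1.12, 1.34 and 1.19). Within slides 1 to 3, Saa3 controls averaged 11.36 ± 1.03 (SD, n = 3) after PBS and 13.90 ± 0.34 (n = 4) after OVA, and within slides 4 to 6 they averaged 10.86 ± 1.41 and 14.12 ± 0.56 (n = 4 each).

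In OVA-challenged mice given particles, Saa3 read 15.10, 13.82 and 14.42 with CuO at 2.5 µg, 15.16, 15.80 and 14.90 at 10 µg, and 17.07, 15.62 and 15.55 at 40 µg. With CuO COOH it read 15.89, 14.77 and 15.71, then 15.93, 15.05 and 17.66, then 17.20, 15.11 and 15.87. The samples of CuO 10, CuO 40 and every CuO COOH dose were all above the highest OVA control at 14.64. In this challenge 3 samples passed 17, the highest Saa3 values of all 89 samples.

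With CuO NH3 after OVA, Saa3 read 14.82, 15.19 and 14.63 at 2.5 µg, 15.42, 15.49 and 15.28 at 10 µg, and 14.77, 16.94 and 16.02 at 40 µg. With CuO PEG it read 14.14, 13.88 and 13.69 at 2.5 µg, 15.39, 15.75 and 15.36 at 10 µg, and 16.01, 15.62 and 16.20 at 40 µg. The lowest PEG dose lay inside the OVA control range, as it had lain inside the PBS control range, and the higher PEG doses lay above it.

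Differences from OVA controls were smaller than those from PBS controls in most groups. Saa3 differed by 1.08 ± 1.24, 1.96 ± 0.71 and 3.07 ± 0.85 with CuO at 2.5, 10 and 40 µg, by 1.82 ± 0.83, 2.09 ± 0.58 and 2.35 ± 0.60 with CuO COOH, by 0.78 ± 0.58, 1.79 ± 0.66 and 1.57 ± 0.65 with CuO NH3, and by -0.12 ± 0.65, 0.75 ± 0.72 and 2.10 ± 0.71 with CuO PEG. Saa1 differed by up to 2.55 ± 0.65 (CuO 40), and its lowest value was -0.13 ± 0.49 (CuO PEG 2.5). The CuO 2.5 value after OVA rests on 1 sample in the fit with array terms, and its error was the widest of the 12.

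After OVA, 10 of 48 combinations were called higher: Saa1 with CuO 40 and with CuO COOH 10 and 40, Saa2 with CuO COOH 10, Saa3 with CuO COOH 40, and Saa4 with CuO 40, CuO COOH 10, CuO NH3 10, CuO NH3 40 and CuO PEG 40. The share of all genes called higher was 0%, 0.205% and 1.05% for CuO at the 3 doses, 0.0175%, 0.441% and 2.23% for CuO COOH, 0.441%, 1.43% and 2.1% for CuO NH3, and 0%, 0% and 0.388% for CuO PEG. All samples lay above all OVA controls in 5 of 12 groups for Saa1, 4 for Saa2, 9 for Saa3 and 5 for Saa4, beside 2.84% of all genes. The count of 10 rose to 23 with slide and position in place of array as the batch terms and to 22 without batch terms. Each of the 10 was lost on leaving out at least 1 sample of its groups. Without CuO COOH 40 + OVA replicate 1 or OVA control replicate 1, the CuO COOH 40 values fell to 0.47 for Saa1 and 0.69 for Saa3. These samples shared an array. With array terms, leaving out either also takes the weight from the other, so the values are the same. Array partners named below are likewise not separate samples that a call depends on. The CuO COOH 10 calls were lost without its replicate 1 or 3 or OVA control replicate 2, that of Saa2 also without OVA control replicate 3. The CuO 40 calls were lost without its replicate 1 or 2, and that of Saa1 also without OVA control replicate 1, 3 or 6. The Saa4 calls were lost for CuO NH3 10 without its replicate 3 or OVA control replicate 7, for CuO NH3 40 without any 1 of its 3 samples or OVA control replicate 5 or 8, and for CuO PEG 40 without its replicate 1 or 3 or OVA control replicate 7.

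Set side by side, the effect of exposure after OVA minus that after PBS was negative in 11 of 12 material and dose combinations for Saa1 (range -3.95 to 0.05), 11 for Saa2 (-2.11 to 1.15), 11 for Saa3 (-4.41 to 0.48) and 8 for Saa4 (-0.43 to 0.57). Of the 48, 5 passed the call rule, beside 0.315% of all genes pooled. The PBS contrast that chose the genes is a term of each difference, so a negative sign was favoured by the choice, and nothing is read from this count. This count ran from 2 to 11 as single samples were left out, and to 17 with slide and position as batch terms.

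The levels reached with OVA and without it were then compared within each material and dose, a comparison chosen after the values were seen and given with intervals alone. With CuO 40, OVA minus PBS was -0.07 for Saa1 (95% interval -1.32 to 1.18) and 0.30 for Saa3 (-1.34 to 1.94). The interval held 0 in 10 of 12 combinations for Saa1, 11 for Saa2, 11 for Saa3 and 9 for Saa4, and lay below 0 in none. All 7 exceptions were PEG groups, 3 of them in Saa4 and 1 in Saa1 at CuO PEG 10. Saa3 was 3.86 higher with OVA at CuO PEG 2.5 (2.06 to 5.66), Saa1 was 3.20 higher (1.82 to 4.57) and Saa2 2.39 higher (1.08 to 3.70). Between unexposed controls the values for Saa3, Saa1 and Saa2 were 3.38, 3.15 and 1.24, and the difference between these sets was not tested.

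**Figure D3:**
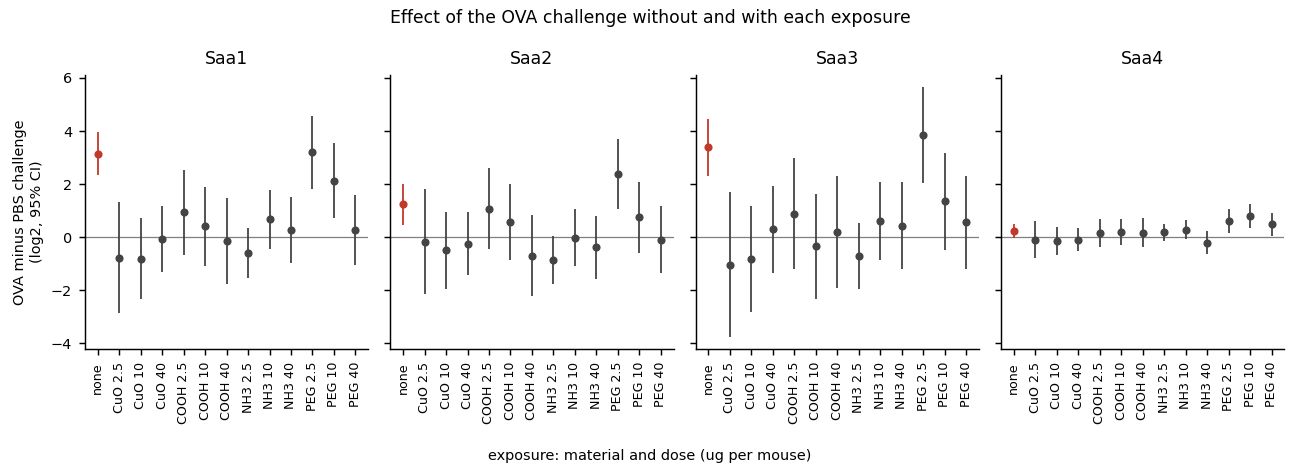
OVA-challenged minus PBS-challenged log2 difference for the SAA genes in unexposed controls and in each material and dose, with 95% confidence intervals. Saa1 and Saa3 differ by 3.15 and 3.38 in controls and by 3.20 and 3.86 at CuO PEG 2.5, while the CuO 40 intervals include 0.

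The third comparison asked whether the surface coating changed the SAA response at equal dose. It comprised 9 comparisons with core CuO after PBS and 9 after OVA, each with p-values adjusted over all genes. CuO NH3 and CuO PEG were on other slides than core CuO. The fit therefore carried terms for dye, slide and position, and the link between slide sets rests on the controls. On simulated samples this fit called 52 unchanged genes beside 193 of 200 changed ones, so adjusted p-values near 0.05 are less secure. At 2.5 µg after PBS, CuO PEG gave Saa1 at 8.10, 7.60 and 7.46 against 12.77, 14.02 and 13.13 for CuO, without overlap, and Saa1 was lower by 16.5-fold (log2 -4.05 ± 0.58, 95% interval -5.21 to -2.88, limma adjusted p = 1.03e-05). Saa3 was lower by 22.0-fold (-4.46 ± 0.74, -5.94 to -2.98, adjusted p = 8.01e-05). Saa4 was lower by at least 1.33-fold (-0.73 ± 0.22, measured means 5.50 and 6.36, adjusted p = 0.048). Saa2 did not pass, at -1.67 ± 0.56 (-2.80 to -0.55, adjusted p = 0.0856). The Saa1 and Saa3 differences kept their call under the 9 alternative settings run and with any single sample of either group left out, whereas that of Saa4 was lost without any 1 of the 6 samples (smallest limma adjusted p 0.0536).

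The gap between PEGylated and core particles was smaller at higher doses. At 10 µg after PBS, Saa1 was lower with CuO PEG by 1.93 ± 0.53 on the log2 scale (95% interval -2.998 to -0.87, limma adjusted p = 0.039), and Saa3 did not pass at -1.69 ± 0.67 (-3.04 to -0.35, adjusted p = 0.195). The Saa1 call was lost without CuO 10 replicate 2 or 3 or CuO PEG 10 replicate 2 or 4 (limma adjusted p = 0.121, 0.143, 0.0898 and 0.113) and with array terms, where the difference was larger (-3.52, adjusted p = 0.0579). At 40 µg neither did, at -0.79 (-1.89 to 0.31, adjusted p = 0.411) for Saa1 and -0.67 (-2.06 to 0.72, adjusted p = 0.632) for Saa3. Nor did CuO PEG 40 differ from CuO 10 past the threshold, at -0.55 for Saa1 (-1.67 to 0.57) and -0.46 for Saa3 (-1.87 to 0.96), intervals that allow sizeable differences either way.

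Carboxylation separated from core CuO in calls at the lowest dose alone, and these rested on few samples. Saa1 with CuO COOH 2.5 was lower than with CuO 2.5 by 2.25 ± 0.46 (-3.17 to -1.32, limma adjusted p = 0.0132), Saa3 by 2.32 ± 0.58 (-3.49 to -1.15, adjusted p = 0.0498) and Saa4 by at least 1.495-fold (log2 -0.73 ± 0.17, measured means 5.64 and 6.36, adjusted p = 0.0339). Without CuO COOH 2.5 replicate 2 the values were -1.43, -1.42 and -0.58 (limma adjusted p = 0.282, 0.473 and 0.282), and all 3 calls were lost. They were lost as well without CuO 2.5 replicate 2 (-1.82, -1.98 and -0.72, limma adjusted p = 0.110, 0.184 and 0.102), with loess normalization and without batch terms. With array terms the values shrank to -0.87, -1.18 and -0.25 (limma adjusted p = 0.966 for each). No array held both groups, so this fit does not compare them within arrays. CuO COOH 2.5 replicate 2 was alone on its array and has no weight there, so the fit is not separate from leaving that sample out. Methylamination gave no call against core CuO: at 2.5 µg Saa1 differed by -0.12 (-1.32 to 1.09) and Saa3 by 0.09 (-1.44 to 1.61), and at 40 µg Saa3 by -0.04 (-1.46 to 1.38). These intervals leave room for differences of over 2-fold. In all, 7 of 36 member and material combinations after PBS were called, each of them lower, beside 0.568% of all genes pooled over the 9 comparisons.

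After OVA, 0 of 36 were called by limma, with a smallest adjusted p of 0.459, beside 0.129% of all genes called in either direction. The estimates were above 0 in 33 of 36, and for Saa3 ran from 0.06 to 1.44. The genes vary together and the comparisons at a dose share the same core CuO samples, so these signs are not independent. Other batch terms gave up to 4 calls of 36, the 4 with the replicate number as a block. The reading that coating matters after PBS and not after OVA was not tested as a difference of differences.

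CuO PEG and CuO NH3 shared slides 4 to 6 and could be set against each other without the link between slide sets, a comparison also added after the values were seen. After PBS, PEG minus NH3 in Saa3 was -4.55 at 2.5 µg (95% interval -5.73 to -3.37), -1.87 at 10 µg (-2.91 to -0.83) and -0.63 at 40 µg (-1.85 to 0.59). In Saa1 it was -3.93 (-4.86 to -2.996), -1.89 (-2.71 to -1.07) and -0.70 (-1.66 to 0.27), and in Saa2 -2.73, -1.22 and -0.63 at the same doses. For Saa4 the values were -0.67, -0.30 and -0.45 (-0.82 to -0.09 at 40 µg). Its probe was well above background in 0 of 3 CuO PEG 2.5 and 0 of 4 CuO NH3 10 samples, so no order over doses is read from it. With array terms the 2.5 µg differences were -5.48 for Saa3 and -4.85 for Saa1, and those at 40 µg turned positive, at 0.40 (-1.11 to 1.91) for Saa3 and 0.22 (-0.94 to 1.37) for Saa1.

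**Figure D4:**
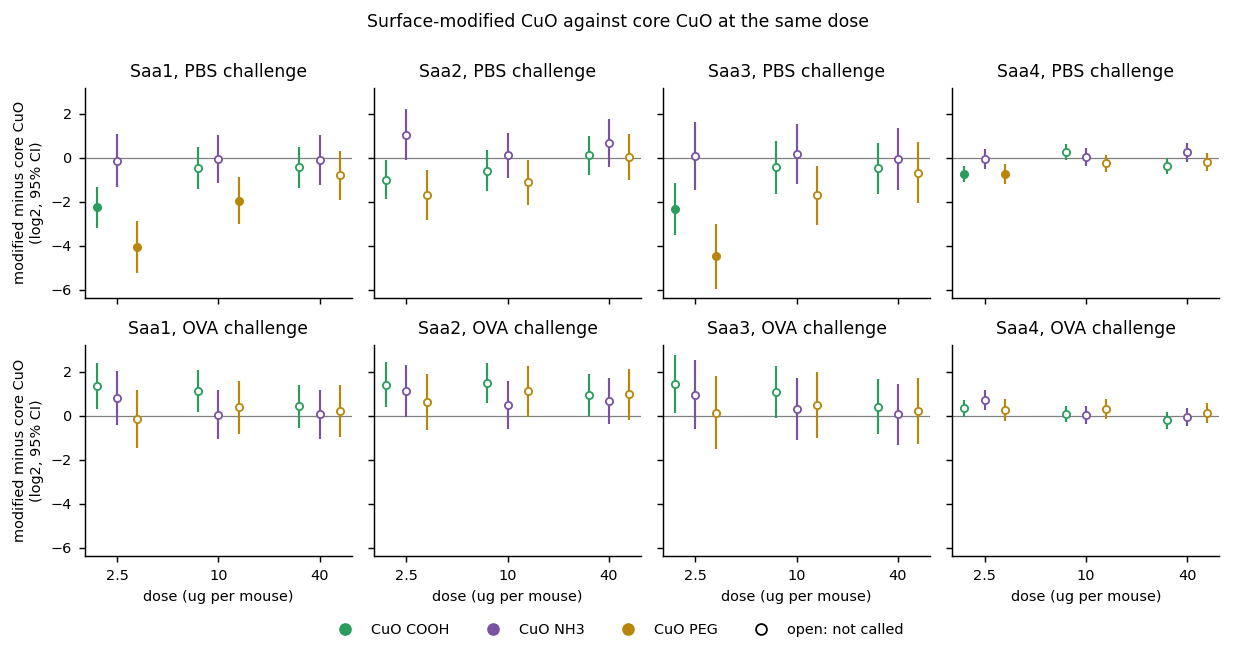
Log2 difference of each modified material from core CuO at equal dose for the SAA genes after PBS and after OVA, with 95% confidence intervals. After PBS the CuO PEG points for Saa1 move from -4.05 at 2.5 µg to -0.79 at 40 µg. The CuO NH3 points for Saa1 and Saa3 stay near 0 after PBS. After OVA 33 of 36 points lie above 0, and points at a dose share the same core CuO samples.

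SAA rose with dose for PEGylated particles. Between 2.5 and 40 µg after PBS, Saa3 rose by 5.52 ± 0.79 (SE) on the log2 scale (46.0-fold, limma adjusted p = 0.000139). Saa1 rose by 4.83 ± 0.60 (28.4-fold, 3.59 to 6.07, limma adjusted p = 3.23e-05) and Saa2 by 3.51 ± 0.57 (11.4-fold, limma adjusted p = 0.000495). Saa4 rose by 0.92 ± 0.20 (measured means 6.14 and 5.50, limma adjusted p = 0.00748). Its probe was well above background in 1 of 3 CuO PEG 40 and 0 of 3 CuO PEG 2.5 samples, so the size of this rise is uncertain and no bound is given. Without CuO PEG 2.5 replicate 3, Saa1 kept its call, and Saa2 (3.24, adjusted p = 0.134), Saa3 (4.92, adjusted p = 0.101) and Saa4 (0.93, adjusted p = 0.226) lost theirs in the limma fit. Saa4 lost it also without CuO PEG 40 replicate 1 or 3 (adjusted p = 0.0659 and 0.0773).

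For the other materials the same step gave Saa1 1.00 (-0.53 to 2.53, limma adjusted p = 0.558) with CuO, 1.15 (adjusted p = 0.722) with CuO COOH and -0.23 (adjusted p = 0.812) with CuO NH3, none past the test. The exception was Saa4 with CuO NH3, which rose by 0.60 ± 0.16 (limma adjusted p = 0.0116). This call was lost without CuO NH3 2.5 replicate 3 or CuO NH3 40 replicate 3, which shared an array (0.15, limma adjusted p = 0.797 for both). Thus 5 of 16 were called after PBS, beside 2.52% of all genes, and 0 of 16 after OVA by limma, beside 0.0786%. Under other batch terms, 3 to 6 of the 16 were called after OVA: 6 with slide and position, 5 with the replicate block, 3 without batch terms and 4 when arrays were a random block. The largest step after OVA was that of Saa3 with CuO PEG, 2.22 ± 0.82 (adjusted p = 0.52).

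Ordered by group mean after removal of slide, position and dye effects, Saa1 was lowest with CuO PEG 2.5 (8.51), then in PBS controls (8.52), CuO COOH 2.5 (10.30), CuO PEG 10 (10.64) and CuO PEG 2.5 + OVA (11.10), followed by OVA controls (11.22). It was highest with CuO COOH 10 + OVA (13.58). Saa3 also began with CuO PEG 2.5 (10.89) and PBS controls (11.12) and ended with CuO COOH 40 + OVA (16.28), and its 1 gap between neighbours lay above CuO PEG 2.5 + OVA (14.09). Neighbouring groups overlapped in 24 of 25 pairs for Saa1, Saa2 and Saa3 and in 25 of 25 for Saa4, so few steps in the order exceed the spread.

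The members rose and fell together across samples. Over all 89 samples, which share slides and normalization, Pearson's r between Saa1 and Saa3 was 0.907, and it was 0.974 over the 43 samples of slides 1 to 3 and 0.982 over the 46 of slides 4 to 6. Between Saa1 and Saa2 it was 0.706 over all, 0.873 and 0.932 within the slide sets, and between Saa2 and Saa3 0.873, 0.892 and 0.924. Saa4, near background, had 0.742 with Saa1, 0.74 with Saa2 and 0.792 with Saa3. These describe co-variation over treatments and carry no test.

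**Figure D5:**
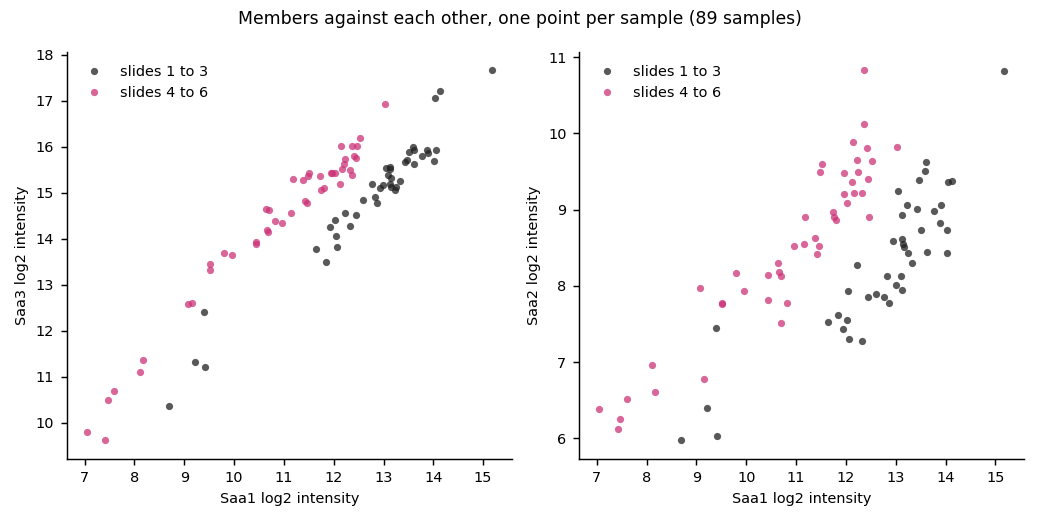
Saa3 and Saa2 log2 intensity against that of Saa1, 1 point per sample, coloured by slide set. Each set forms its own line, that of slides 1 to 3 lying toward higher Saa1, and r for Saa3 was 0.974 and 0.982 within the sets beside 0.907 over all 89 samples.

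The genes most like each member over the 26 group means, by Pearson's r, were found among all genes with no regard to function. For Saa1 they were Steap4 (0.959), Ccl3 (0.924), Lcn2 (0.915), Tctex1d2 (0.911) and Rhou (0.910). For Saa3 they were Cxcl1 (0.958), H2az1 (0.941), Cd14 (0.936), D17H6S56E-5 (0.931) and Rgs16 (0.928), and for Saa2 they were Saa3 (0.885), Clec5a (0.872), Cd14 (0.866), Tubgcp4 (0.859) and Ctps (0.858). With slide effects removed, the gene most like Saa1 was Saa3 (0.995), and by rank correlation over the group means Steap4 was among the first 5 for Saa1 (0.922) and none of the genes just named was for Saa2 or Saa3.

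Other acute-phase genes rose in the same groups. Of 23 measured, limma called 11 higher with CuO 2.5, 15 with CuO 40, 16 with CuO COOH 40, 13 (and 1 lower) with CuO NH3 40, 9 with CuO PEG 40 and 0 with CuO PEG 2.5. Their median difference with CuO 2.5 was 1.18 against -0.000485 over all genes. With CuO 40, Orm1, an orosomucoid that binds drugs and lipids in plasma, rose by 6.06 ± 0.70, Orm2 by 5.38 ± 0.68, Lcn2, which captures bacterial siderophores, by 4.02 ± 0.54, Serpina3n, a protease inhibitor, by 3.89 ± 0.43, and Cd14, the lipopolysaccharide co-receptor, by 3.31 ± 0.31. The OVA controls had 7 called higher against PBS controls, among them Serpina3n (2.26 ± 0.26), C3 (1.83 ± 0.19), Cfb (1.76 ± 0.28) and Lcn2 (1.41 ± 0.32). The pentraxins Crp and Apcs and the fibrinogen genes Fga and Fgb were well above background in under 10% of samples, and Serpina3g was not measured.

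The list of SAA inducers held 12 genes, cytokines together with the interleukin-6 receptor subunits Il6ra and Il6st. Of these, 5 were called higher with CuO 40, 2 with CuO COOH 40, 6 with CuO NH3 40, 1 with CuO PEG 40 and 2 in OVA controls. Il6, the main inducer of hepatic SAA, rose by 2.54 ± 0.39, 1.88, 2.42 and 1.59 ± 0.32 with the 4 materials at 40 µg in that order and by 1.49 ± 0.23 in OVA controls. With CuO 40, Il1b rose by 2.05 ± 0.50, Il11 by 1.74 ± 0.25 and Tnf by 1.35 ± 0.36. The median difference with CuO 40 was 0.52 over the 12, beside 0.00931 over all genes. At CuO 2.5, where Saa3 already read 15.20 to 15.70, Tnf alone of the 12 was called (1.42 ± 0.32), and Il6 was at 0.54 ± 0.34 (limma adjusted p = 0.594). Il17a and Csf3 were well above background in under 10% of samples.

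Among 10 regulators of SAA transcription, 3 were called higher with CuO 40: Socs3, the feedback inhibitor of STAT3 signalling, by 1.31 ± 0.23, Nfkb2 by 0.96 ± 0.22 and Cebpb by 0.92 ± 0.23. Socs3 also rose by 1.12 with CuO NH3 40 and 0.89 ± 0.19 with CuO PEG 40 and by 0.73 ± 0.14 in OVA controls. The median of the 10 with CuO 40 was 0.45, beside 0.00931 over all genes. Stat3 itself did not pass with CuO 40, at 0.50 ± 0.18 (limma adjusted p = 0.0553).

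Some SAA receptors went the other way with CuO 40 and CuO NH3 40. Of the 8, 3 were called lower with each of these, and 0 with CuO COOH 40 or CuO PEG 40. With CuO 40 and with CuO COOH 40, 1 was called higher. Of all genes, 6.1% were called lower with CuO 40, 4.25% with CuO COOH 40, 5.92% with CuO NH3 40 and 0.476% with CuO PEG 40. With CuO 40, of 8 receptors, Tlr2 rose by 0.97 ± 0.28, and Fpr1 (-1.75 ± 0.47), Fpr2, the chemotactic SAA receptor (-1.25 ± 0.34), and the scavenger receptor Cd36 (-0.98 ± 0.31) fell. Of 9 partners in high-density lipoprotein, 2 fell with each material at 40 µg and none rose. Pon1, a lipoprotein-borne esterase, fell by 2.66 ± 0.28 with CuO 40, 2.52 with CuO COOH 40, 2.73 with CuO NH3 40 and 0.91 ± 0.23 with CuO PEG 40, and Abcg1, a cholesterol exporter, fell by 1.70 ± 0.23 with CuO 40 and 1.06 ± 0.19 with CuO PEG 40. With CuO 40 the medians were -0.23 for the receptors and -0.39 for the partners. Apoa1 and Apoa4 were well above background in under 10% of samples.

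Markers of other cells moved with part of this pattern. The mean log2 level of 10 neutrophil genes was 9.71 to 10.16 in PBS controls, 9.91 to 10.36 with CuO 2.5, 10.25 to 10.57 with CuO 10 and 10.70 to 11.44 with CuO 40. It was 9.69 to 10.04 with CuO PEG 2.5, 10.20 to 10.56 with CuO PEG 40 and 9.77 to 10.30 in OVA controls. At CuO 2.5 and in OVA controls, where Saa1 and Saa3 were far above PBS controls, the neutrophil level overlapped that of PBS controls, with means of 10.19 at CuO 2.5 and 9.91 in PBS controls. Of the 10 genes, limma called 1 higher and 0 lower at CuO 2.5 (Clec4d, 1.70 ± 0.28), 2 higher in OVA controls (Retnlg, 1.05 ± 0.28, and Il1r2, 0.98 ± 0.27), and 8 higher and 1 lower with CuO 40. Macrophage genes moved with the OVA challenge: 5 of 10 were called higher in OVA controls. Their mean level was 10.59 in PBS controls and 11.57 in OVA controls. With CuO 40 it ran from 9.95 to 10.13, below the 10.28 to 10.85 of PBS controls, with 2 genes called higher and 2 lower. With CuO 40 + OVA it averaged 10.59. Of 12 lung epithelium genes, 3 were called higher and 1 lower with CuO 40, and 2 higher and 4 lower with CuO NH3 40. The mean of 8 adipocyte genes was 8.13 in PBS controls and 7.43 with CuO 40, and 5 of 6 endothelial genes were called lower with CuO 40. The hepatocyte list gave 1 call with CuO 40, Ahsg, which was higher, and its defining gene Alb was at -0.30. With CuO COOH 40 and with CuO NH3 40, 1 hepatocyte gene was called higher and 1 lower. With CuO NH3 10 and in OVA controls, 1 was called higher and 0 lower. The part of the other cell types in the SAA differences was not tested.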

How the data were processed

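Lung RNA from 89 pooled samples was hybridised to 2-colour Agilent 8x60K arrays, 1 sample per channel. The deposited intensity columns are scanner output from Feature Extraction 12.0.2.2 (per the file headers), not normalized. The deposited value matrix, holding the authors' log2 values, was an alternative: each of its 89 columns was most alike its own channel, and column medians were 6.482 to 6.507. Its centring stays unknown.

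Here, control spots (3671 of 62976) and outlier spots were left out, and log2 median foreground intensity was quantile normalized without background subtraction. Probes (56605) were named by RefSeq accession: 32994 had a gene, 23611 had none, and probes of a gene were averaged to 22911 genes (60 with a missing value). Models were fitted in R 4.3.3 with limma 3.58.1 and statmod 1.5.0 over all 26 groups, which share 1 estimate of the spread: with dye and array terms for exposure, challenge and dose, and with dye, slide and position for materials across slide sets. Calls needed a Benjamini-Hochberg adjusted p under 0.05 over all genes and an absolute log2 difference over 0.58. Genes named were the 4 members, the 5 genes most correlated with each member over group means, and, of each list, up to 4 called genes with the largest change and any gene whose role is explained. The members and lists were chosen with earlier results of these data known. The fit was checked on simulated samples in which 200 of 22851 genes carried a log2 change of 1.5. With array terms it recovered 188 for CuO 40 against PBS controls, with 7 other genes called. It recovered 200 for OVA against PBS controls and 193 for the CuO PEG dose step, with 2 and 13 other genes called. The fit used for materials recovered 193 for CuO PEG 2.5 against CuO 2.5, with 52 other genes called. That share of false calls is above what an adjusted p under 0.05 allows, so material calls near the threshold are less secure. Promoters came from RefSeq (GRCm38.p6), found for 4 of 4 members, searched with Python 3.11.15 and Biopython 1.88. Figures used Matplotlib 3.10.9. Alternatives covered background correction, loess, batch terms, the replicate number as a block, dim probes, the brightest probe, the deposited table, controls of the same slides and each sample left out.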

Additional observations from a re-analysis of the deposited data

Results flagged for a closer look

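The exposure effect after OVA differed from that after PBS past the call rule, by the limma interaction term, in 5 cases. For Saa1 the effect after OVA minus that after PBS was -3.21 with CuO 40, -3.29 with CuO COOH 40, -3.74 with CuO NH3 2.5 and -2.87 with CuO NH3 40. For Saa3 it was -4.10 with CuO NH3 2.5. The contrasts that chose the genes enter these differences, so they are descriptions and a negative sign was favoured by the choice. No sample stood far from its group by Dixon's criterion in the 16 gene and group combinations of 4 to 10 samples that were tested. Such a criterion flags about 1 in 20 by chance.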

How the results depend on the processing

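Calls among the SAA genes numbered 37 for exposure after PBS, 10 for exposure after OVA, 3 for OVA controls against PBS controls, 5 for the effect difference between challenges, 7 for materials after PBS, 0 for materials after OVA, 5 for dose after PBS and 0 for dose after OVA. With loess and Aquantile normalization they were 4 for materials after PBS and 3 for dose after PBS. With the array as a random block they were 22 for exposure after OVA, 16 for the effect difference, 2 for materials after OVA and 4 for dose after OVA. With dye, slide and position (dye and array for materials) they were 23, 17, 4 for materials after PBS and 6 for dose after OVA, and without batch terms 22, 12, 1 for materials after OVA and 3 for dose after OVA. Other counts stayed within 1.5 times, among them all 8 with normexp background correction, with dim probes left out, with the brightest probe and with the deposited table. Each SAA gene had 1 probe, so the brightest-probe setting could not change its values, and only the shared spread and the p adjustment could move. No SAA difference reversed sign while called. The cause of these moves was not tested.

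By the criterion used, that every same-numbered pair correlate over 0.1, replicate numbers did not pair the samples: deviations from group means correlated with a median r of 0.0516 for the 984 same-numbered pairs, 37.9% of them over 0.1, against -0.0216 for other pairs, although 63 of 89 samples correlated best with their own number, and the numbers largely followed the slides within each slide set. With the replicate block and dye, counts were 20 for exposure after OVA, 15 for the effect difference, 12 for materials after PBS, 4 for materials after OVA and 5 for dose after OVA, and 37, 3 and 7 for exposure after PBS, OVA controls and dose after PBS. These 37 are not the same set. The block has no term for the slide set, and with it Saa1 was lower than controls with CuO PEG 2.5 after PBS (-1.43) and after OVA (-1.69), both past the call rule, and did not pass with CuO PEG 10 after PBS (0.66).

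Leaving out each sample in turn, counts ran from 25 to 38 for exposure after PBS, 7 to 15 for exposure after OVA, 2 to 3 for OVA controls, 2 to 11 for the effect difference, 3 to 7 for materials after PBS, 0 to 0 for materials after OVA, 2 to 5 for dose after PBS and 0 to 0 for dose after OVA. The effect difference reached 11 without CuO COOH 40 + OVA replicate 1 or OVA control replicate 1, 8 without CuO NH3 40 + OVA replicate 2 or CuO NH3 10 replicate 3, and 3 without CuO COOH 40 replicate 3, CuO COOH 10 + OVA replicate 3, CuO NH3 2.5 replicate 1, CuO NH3 40 + OVA replicate 1, CuO COOH 2.5 + OVA replicate 3, PBS control replicate 3, CuO NH3 2.5 + OVA replicate 1 or CuO PEG 40 replicate 3. It was 2 without PBS control replicate 2, OVA control replicate 3, CuO 10 replicate 2, CuO 40 replicate 2, CuO 40 + OVA replicate 2 or CuO COOH 10 + OVA replicate 2. Materials after PBS fell to 3 without CuO 2.5 replicate 2 and to 4 without CuO 2.5 replicate 1 or 3, CuO COOH 2.5 replicate 2, CuO 10 replicate 3, PBS control replicate 2 or 3 or OVA control replicate 1, and dose after PBS to 2 without CuO PEG 2.5 replicate 3 or OVA control replicate 8. In fits with array terms, leaving out a sample also takes the weight from its partner on the same array. Partners such as CuO PEG 2.5 replicate 3 and OVA control replicate 8 are therefore not separate dependences. Saa4 lay near background in 38 of 89 samples, which limits its differences to bounds or leaves them without one.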
